A study of Mus musculus with 16 samples.

Results

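ATAC-seq marks DNA that is open enough for a transposase to insert sequencing adapters. The regions described here are the autosomal ATAC-seq peaks of *Morc1* knockout male germ cells at the fetal stage E16.5 that overlapped, by 1 bp or more, no peak of E16.5 heterozygous cells nor any peak of the E13.5 heterozygous, E13.5 knockout, P0 or P3 lists. They number 4672 of the 54786 autosomal peaks in the E16.5 knockout list (8.53%), and of 302829 peaks in the 6 distinct lists of the series. The same rule with the E16.5 genotypes exchanged gave 4161 control regions among 51706 autosomal peaks of the heterozygous list (8.05%). Both sets were chosen by the presence and absence of peaks in these lists, so their numbers are a description and carry no test.

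The study profiled germ cells isolated from testes of male Mvh-Venus transgenic mice, in which a fluorescent reporter follows the germ cell gene *Ddx4* (Mvh). There were 16 samples, 2 in each of 8 groups: *Morc1* (+/-) and *Morc1* (-/-) at E13.5, E16.5, postnatal day 0 (P0) and postnatal day 3 (P3). All groups carry the reporter, the control cells carry 1 mutant *Morc1* allele, and no wild-type group is among the samples. The deposited lists hold 1 set of peak positions per stage and genotype, with no score, read count or value per sample. The P0 lists of both genotypes were identical in all 67258 rows and the P3 lists in all 44760 rows, so each was used once, with no genotype attached. All peaks of both E16.5 lists have the same width. The read depth behind each list is unknown, and no spread between replicates could be measured. The 95% Wilson intervals given below therefore cover counting error over regions only. A region open in few cells and one open weakly in many cells cannot be told apart in these bulk samples.

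MORC1 is a germ-cell ATPase of the MORC family that acts with the piRNA pathway in silencing transposons of fetal male germ cells. Gonocytes, the fetal and neonatal precursors of spermatogonia, stop dividing in the second part of gestation and resume division after birth. During this arrest their genome, which was stripped of DNA methylation earlier, is methylated anew. CpG-rich promoters are open in most cell types, whereas CpG-poor promoters are more often open in a restricted set of tissues.

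Promoters under the knockout-only regions, like those under the control regions, were mostly poor in CpG. The rule keeps both sets off peaks of both genotypes, which cover most CpG-rich promoters, so this is a description. The sequences below show the 250 bases before the annotated start of the 5 protein-coding genes whose start lay closest to the middle of a knockout-only region. Next come the gene closest to a control region and the 2 transposon-silencing genes closest to a peak of both genotypes. Each is read 5′ to 3′ on the strand of the gene from the RefSeq promoter table (GRCm38.p6), and capitals mark CpG dinucleotides.
Tspan9 (knockout-only, chr6:128124374-128124623, minus strand): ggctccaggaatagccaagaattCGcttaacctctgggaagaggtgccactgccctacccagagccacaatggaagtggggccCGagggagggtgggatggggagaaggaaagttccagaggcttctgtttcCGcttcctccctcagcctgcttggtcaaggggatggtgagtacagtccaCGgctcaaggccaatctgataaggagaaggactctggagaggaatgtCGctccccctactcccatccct
Spp1 (knockout-only, chr5:104434861-104435110, plus strand): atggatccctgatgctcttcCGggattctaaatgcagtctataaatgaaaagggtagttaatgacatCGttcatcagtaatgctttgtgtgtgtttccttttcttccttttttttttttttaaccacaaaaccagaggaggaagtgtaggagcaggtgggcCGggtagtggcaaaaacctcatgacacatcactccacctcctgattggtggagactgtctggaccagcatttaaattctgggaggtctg
Wnt11 (knockout-only, chr7:98834862-98835111, plus strand): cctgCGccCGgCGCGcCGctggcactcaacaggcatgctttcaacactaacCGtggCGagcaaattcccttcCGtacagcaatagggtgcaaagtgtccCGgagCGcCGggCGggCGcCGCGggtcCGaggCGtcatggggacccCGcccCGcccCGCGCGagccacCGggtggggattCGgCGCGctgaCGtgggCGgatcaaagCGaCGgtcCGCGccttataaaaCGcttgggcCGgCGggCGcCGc
Olfr15 (knockout-only, chr16:3838725-3838974, plus strand): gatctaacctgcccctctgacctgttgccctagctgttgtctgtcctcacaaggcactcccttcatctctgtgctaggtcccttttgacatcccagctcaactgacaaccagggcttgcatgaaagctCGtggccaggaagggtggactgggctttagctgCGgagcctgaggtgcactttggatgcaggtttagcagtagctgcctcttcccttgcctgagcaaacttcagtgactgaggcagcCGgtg
Cym (knockout-only, chr3:107221733-107221982, minus strand): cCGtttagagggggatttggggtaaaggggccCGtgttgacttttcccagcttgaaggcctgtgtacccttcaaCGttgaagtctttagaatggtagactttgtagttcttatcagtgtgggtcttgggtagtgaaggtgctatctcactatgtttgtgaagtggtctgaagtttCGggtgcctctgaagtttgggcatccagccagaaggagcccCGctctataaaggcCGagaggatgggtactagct
Kcnk16 (control, chr14:20269270-20269519, minus strand): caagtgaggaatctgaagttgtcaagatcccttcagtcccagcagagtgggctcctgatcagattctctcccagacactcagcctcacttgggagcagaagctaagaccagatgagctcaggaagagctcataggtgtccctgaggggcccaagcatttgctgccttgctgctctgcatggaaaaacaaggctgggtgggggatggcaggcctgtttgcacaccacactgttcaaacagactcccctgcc
Tdrd12 (both genotypes, chr7:35537745-35537994, minus strand): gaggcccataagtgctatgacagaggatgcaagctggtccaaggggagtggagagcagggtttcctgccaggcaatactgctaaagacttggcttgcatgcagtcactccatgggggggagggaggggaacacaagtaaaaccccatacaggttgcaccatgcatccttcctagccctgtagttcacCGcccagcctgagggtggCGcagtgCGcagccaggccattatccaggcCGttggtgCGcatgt
Pld6 (both genotypes, chr11:59787658-59787907, minus strand): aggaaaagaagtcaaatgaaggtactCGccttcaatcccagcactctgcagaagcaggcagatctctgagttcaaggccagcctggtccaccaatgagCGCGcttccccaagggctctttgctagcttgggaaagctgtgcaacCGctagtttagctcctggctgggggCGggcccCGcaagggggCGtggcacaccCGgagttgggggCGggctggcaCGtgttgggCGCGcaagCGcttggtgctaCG

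*Tspan9* codes for a membrane tetraspanin and has 5 CpGs in these 250 bases. *Spp1* codes for osteopontin, a secreted phosphoprotein, and has 3. *Wnt11*, a gene for a secreted signalling ligand, stands apart from the other 4 with 37. The olfactory receptor gene *Olfr15* has 3, and *Cym*, the gene for the milk-clotting protease chymosin, has 6. The control example *Kcnk16*, a potassium channel gene, has 0. Of the piRNA pathway genes open in both genotypes, *Tdrd12* has 5 and *Pld6* has 14, so a low CpG count is not restricted to promoters open in 1 genotype.

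The knockout list held 3080 more autosomal peaks than the heterozygous list at E16.5. Regions absent elsewhere supplied 511 of this excess (16.6%), and regions also found at another stage supplied 2569 (83.4%). Of 12794 autosomal knockout-only peaks at E16.5, 36.5% were absent elsewhere, compared with 42.8% of 9714 heterozygous-only peaks. Knockout-only regions outnumbered heterozygous-only regions by a ratio of 1.12 (95% Wilson interval 1.08 to 1.17) for those absent elsewhere and 1.46 (interval 1.41 to 1.51) for those found at another stage. The longer knockout list thus differed from the heterozygous list mainly at positions that were peaks at E13.5, P0 or P3. At the edge of the rule, of the 4672 knockout-only regions, 44 lay within 50 bp of a peak in another list, and 40 knockout peaks were left out by an overlap of 50 bp or less.

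**Figure D1:**
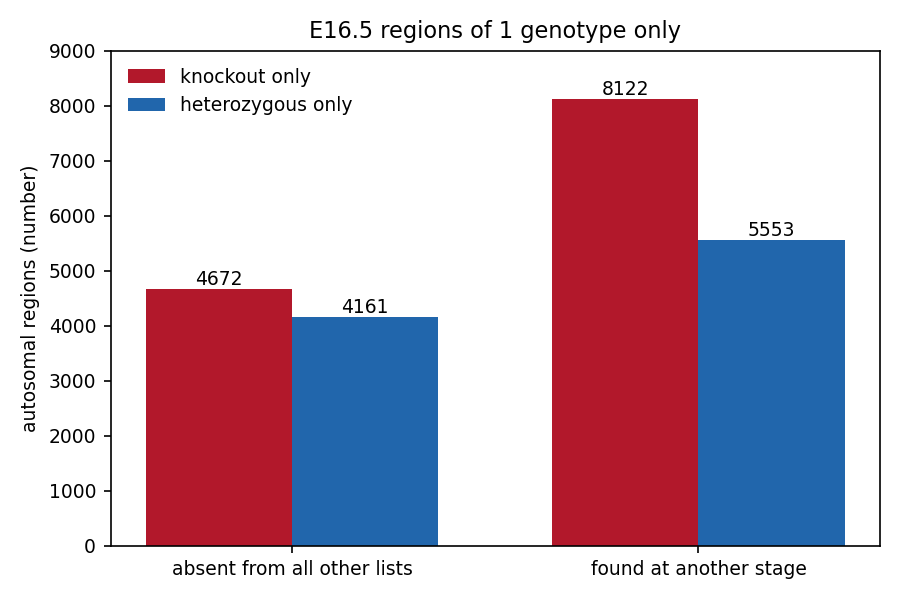
Number of autosomal E16.5 regions (y axis) found in the knockout list only (red) or the heterozygous list only (blue), split by whether they overlapped a peak of another stage. The 2 genotypes differ by 511 regions among those absent elsewhere and by 2569 among those found at another stage.

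On 16 of 19 autosomes the knockout-only regions outnumbered the control regions. The ratio ran from 0.807 on chromosome 3 (334 knockout-only and 414 control regions, interval 0.699 to 0.932) to 1.52 on chromosome 11 (126 and 83 regions, interval 1.15 to 2.001). The interval lay above 1 on 7 autosomes (chromosomes 4, 6, 9, 10, 11, 15 and 17) and below 1 on chromosome 3. On all 19 autosomes the ratio was lower for regions absent elsewhere than for regions found at another stage. For chromosome 11 these were 1.52 and 2.49, and for chromosome 6 they were nearly equal, at 1.39 and 1.46. As a share of the knockout list, regions absent elsewhere ranged from 4.97% on chromosome 19 (interval 3.80 to 6.47) to 10.3% on chromosome 4 (interval 9.37 to 11.2).

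Gene density separated the genotypes. In autosomal 1 Mb windows without the lower outer end of any protein-coding gene, there were 643 knockout-only and 745 control regions, a ratio of 0.863 (interval 0.777 to 0.959). In windows with 10 to 19 such genes there were 829 and 601, a ratio of 1.38 (interval 1.24 to 1.53). The rise was not monotonic. Windows with 20 or more genes stood at 1.07 (505 and 473 regions, interval 0.942 to 1.21). Windows with at most 1 protein-coding gene held 27.0% of the knockout-only regions (interval 25.8 to 28.3) and 33.2% of the control regions (interval 31.8 to 34.7), and made up 23.9% of all 2397 windows with a peak. This difference was not particular to regions absent elsewhere. Among E16.5 regions found at another stage, gene-poor windows held 23.7% of the knockout-only and 32.5% of the heterozygous-only regions.

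**Figure D2:**
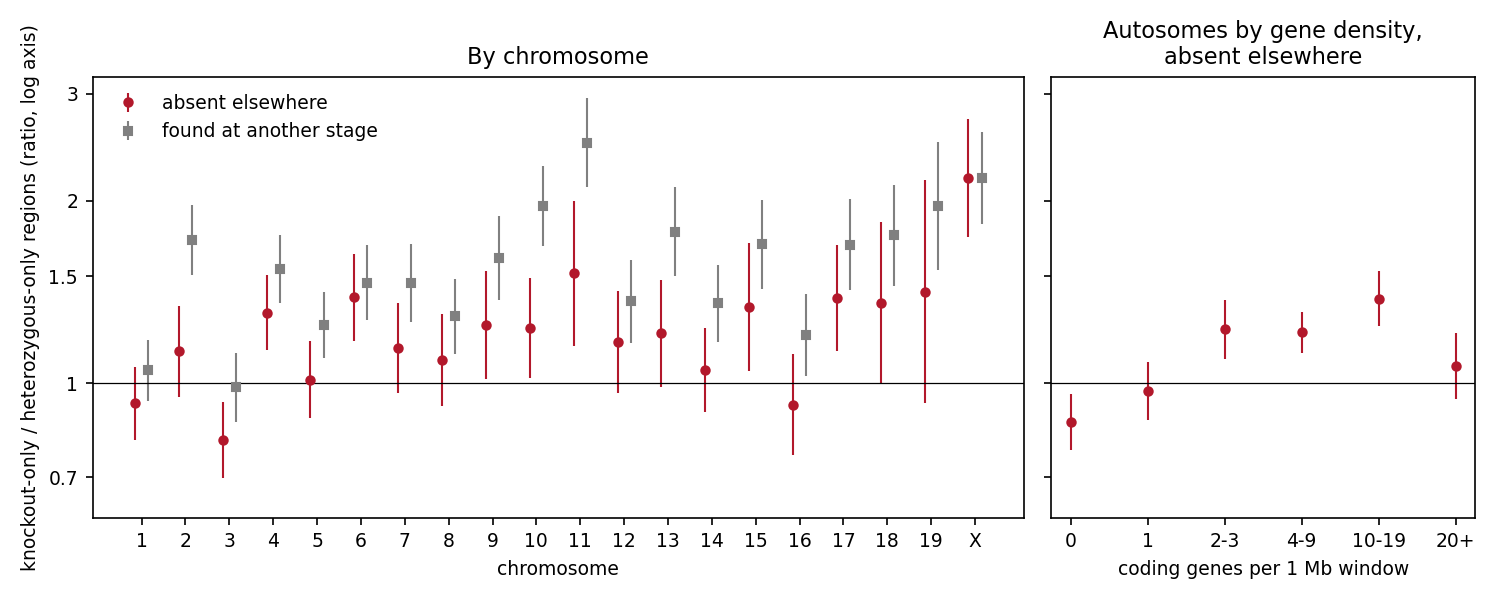
E16.5 regions of the knockout only over those of the heterozygote only, as a ratio on a log axis, by chromosome (left; circles, absent elsewhere; squares, found at another stage) and by number of protein-coding genes per autosomal 1 Mb window (right; absent elsewhere). Lines are 95% Wilson intervals. Circles lie below squares on every autosome, and in the right panel the ratio is 0.863 in windows without a gene and 1.38 in windows with 10 to 19 genes.

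The knockout-only regions were spread more evenly than the control regions. Over the 2397 windows the variance of the number per window was 1.70 times the mean for knockout-only regions and 2.23 times for control regions. No knockout-only region was found in 598 windows (24.9%), whereas 821 windows (34.3%) had no control region. The control set was the smaller, at 1.74 regions per window against 1.95, so the counts of empty windows are not directly comparable. The densest window, on chromosome 15 from 18 to 19 Mb, held 11 knockout-only and 7 control regions and contains 1 coding gene, the cadherin gene *Cdh10*. On chromosome 14 from 86 to 87 Mb, around the formin gene *Diaph3*, there were 10 knockout-only regions and 1 control region. On chromosome 17 from 8 to 9 Mb, with 12 coding genes including *Pde10a*, there were 10 and 3, and on chromosome 7 from 40 to 41 Mb, with *Vstm2b* and 4930433I11Rik, there were also 10 and 3. These windows were ranked by the number of knockout-only regions, so their surplus over control regions is a description.

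Knockout-only regions had a peak close by less often than control regions. A P0 peak lay within 5 kb of 19.8% of knockout-only regions (interval 18.7 to 20.97) and of 27.3% of control regions (interval 25.9 to 28.6). For the P3 list the shares were 10.9% and 16.1%, for the E13.5 heterozygous list 10.9% and 13.4%, and for the E13.5 knockout list 10.9% and 14.2%. The intervals of the genotypes were apart for each of these 4 lists, which both sets share as a reference. The E16.5 list of the opposite genotype had a peak within 5 kb of 13.8% of knockout-only and 20.8% of control regions; the list facing the control regions is the longer one. Within the own E16.5 list the shares were 10.5% and 16.1%. The order did not hold at every distance: within 20 kb an E13.5 heterozygous peak was found for 45.2% of knockout-only regions (interval 43.8 to 46.6) and 44.6% of control regions (interval 43.1 to 46.1).

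As a background, both sets were moved by 100 kb in either direction, and positions that met no peak of the 6 lists were kept. Of the moved knockout-only positions, 28.5% had a P0 peak within 5 kb, against the 19.8% observed. The moved control positions gave 31.8%, against 27.3%. In their own list the contrast was wider, with 26.5% for moved and 10.5% for actual knockout-only regions. That spacing was shared by other peaks of the E16.5 knockout list: 10.2% of its knockout-only peaks found at another stage and 8.94% of its peaks in both genotypes had a further knockout peak within 5 kb. Between 5 and 10 kb the order turned, with 26.3% of knockout-only regions against 19.2% of moved positions having their nearest knockout peak there.

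**Figure D3:**
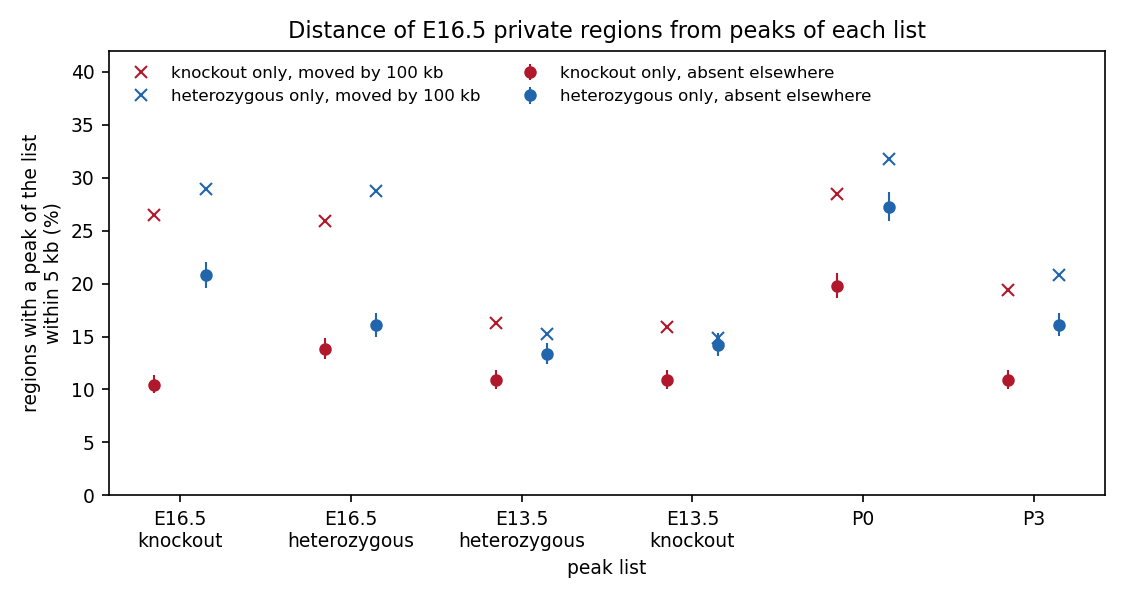
Share of E16.5 regions absent elsewhere that have a peak of each list within 5 kb (y axis, percent), for knockout-only (red) and heterozygous-only (blue) regions, with 95% Wilson intervals. Crosses are the same regions moved by 100 kb, keeping positions that overlap no peak; for P0 the red point stands at 19.8% and the blue at 27.3%.

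Taking the 6 lists together gave the same order at 5 kb. Any peak of the 6 lists lay within 5 kb of 31.7% of knockout-only regions (interval 30.4 to 33.0) and 40.3% of control regions (interval 38.8 to 41.8), while the moved positions gave 42.4% and 45.5%. The knockout-only share was the lower one on 18 of 19 autosomes. Chromosome 15 was the exception, at 40.4% and 38.9%. In windows without a coding gene the shares were 29.7% and 36.9%, and in windows with 20 or more genes 40.2% and 49.5%, so the order held at both ends of gene density. At gene ends 40.7% of knockout-only and 57.3% of control regions had a peak within 5 kb, compared with 28.2% and 35.8% inside genes. At the far end, 95 knockout-only regions (2.03%, interval 1.67 to 2.48) and 37 control regions (0.889%, interval 0.646 to 1.22) lay more than 50 kb from any peak of any list.

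The most solitary knockout-only region lay at chr7:50727389-50727889 within *Nell1*, a gene for a secreted glycoprotein, 186.0 kb from the nearest peak. The next, at chr12:20577195-20577695, overlapped no annotated gene and lay 170.5 kb from any peak. A region at chr12:22745539-22746039, within *Gm38538*, lay 160.1 kb away. Regions within *Vps13b*, at chr15:35734193-35734693, and *Dock4*, at chr12:40704268-40704768, lay 131.8 and 123.9 kb away.

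Few knockout-only regions came in groups of their own kind. Another knockout-only region absent elsewhere lay within 10 kb of 189 of them (4.05%, interval 3.52 to 4.65), and 218 control regions (5.24%, interval 4.60 to 5.96) had another control region that close. These intervals overlap. Within 5 kb they were apart, at 0.899% (interval 0.666 to 1.21) for knockout-only and 1.68% (interval 1.33 to 2.12) for control regions. A control region lay within 10 kb of 240 knockout-only regions (5.14%, interval 4.54 to 5.81) and within 5 kb of 105 (2.25%, interval 1.86 to 2.71). At 5 kb a neighbour of the opposite genotype was more frequent than one of the same set, and at 10 kb the intervals overlapped. Peaks of 1 list are spaced apart: a knockout peak lay within 5 kb of 10.5% of knockout-only regions and 26.5% of moved positions. The order at 5 kb is therefore no result about grouping.

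Knockout-only regions lay at gene ends and between genes more often, and inside genes less often, than the same regions displaced. Here, and for starts and promoter windows below, moved positions that met a peak were kept. The regions themselves overlap no peak of another list, so moved and actual regions differ in this. A gene end, taken as 1000 bp on each side of either outer end of an annotated gene, was met by 415 knockout-only regions (8.88%, interval 8.10 to 9.73) and by 7.41% of the same regions moved by 100 kb. For control regions the values were 9.69% (interval 8.82 to 10.6) and 7.57%. The intervals of the genotypes overlap. Regions found at another stage met a gene end more often, in 16.7% of knockout-only (interval 15.9 to 17.5) and 14.9% of heterozygous-only cases. Peaks present in both genotypes did so in 33.3%. Another 1806 knockout-only regions (38.7%) lay elsewhere within a gene, compared with 42.4% after the move, and 2451 (52.5%, interval 51.0 to 53.9) between genes, compared with 50.1% after the move. Control regions gave 36.4% within a gene, compared with 39.3% after the move. Between genes they gave 53.9% (interval 52.4 to 55.4), which contains the 53.2% found after the move.

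**Figure D4:**
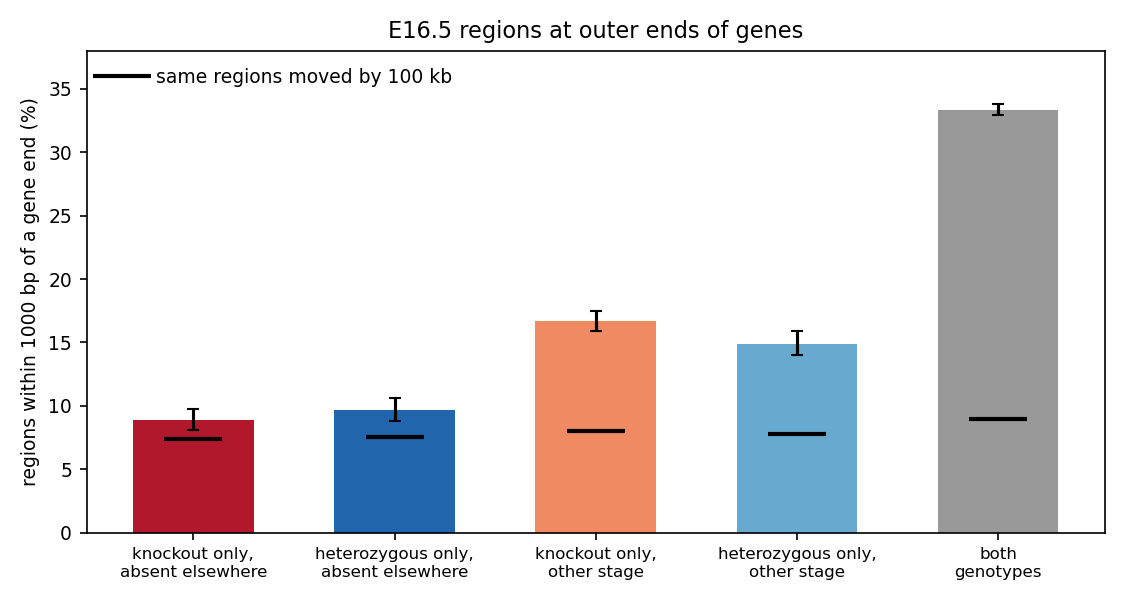
Share of E16.5 autosomal regions within 1000 bp of an outer gene end (y axis, percent; bars, with 95% Wilson intervals) for 5 classes of region. Black lines give the same regions moved by 100 kb in either direction; knockout-only regions absent elsewhere stand at 8.88% with a line at 7.41%, and peaks of both genotypes at 33.3% with a line at 8.99%.

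Measured to the nearest annotated transcription start, on the 18 autosomes of the promoter table, 161 of 4577 knockout-only regions (3.52%, interval 3.02 to 4.09) lay within 1 kb. The moved regions gave 1.87% and the control regions 3.37%. Peaks of both genotypes gave 25.3%. The median distance was 46.3 kb for knockout-only regions, 45.5 kb after the move, 52.3 kb for control regions and 23.7 kb for peaks of both genotypes. Just outside, the order turned: 13.4% of knockout-only regions (interval 12.5 to 14.5) were 1 to 10 kb from a start, compared with 16.8% after the move.

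Regions at protein-coding genes followed gene length above 10 kb. Genes of up to 10 kb held 2.43 knockout-only regions per Mb, those of 10 to 100 kb 1.74, those of 100 to 500 kb 1.67 and those over 500 kb 1.66. Control regions gave 3.05, 1.56, 1.38 and 1.52 per Mb, so the highest density in the shortest genes was not particular to the knockout-only set. All peaks of the knockout list fell over the same classes from 112.1 to 15.4 per Mb. Knockout-only regions absent elsewhere thus made up 2.17% of the knockout peaks in the shortest genes and 10.8% in the longest. The genes with the most regions were 461 kb long or longer and included *Nrg3*, *Pde10a*, *Tenm3*, *Mgat4c*, *Lrp1b*, *Ccser1*, *Galntl6*, *Cntnap2* and *Cadm2*. Control regions were also found in each of these, and in *Mgat4c* they were more numerous (8 against 7), while *Lrp1b*, a receptor gene of 2058 kb, had 7 of each.

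*Pde10a*, which codes for a cyclic nucleotide phosphodiesterase, was the densest of them, with 8 knockout-only regions in 461 kb (17.3 per Mb) and 3 control regions. Over all its peaks the gene had 15 in the E16.5 knockout list, 8 in the heterozygous list of that stage, 6 and 3 in the E13.5 heterozygous and knockout lists, 4 at P0 and 6 at P3. Its knockout-only regions lay between 8562095 and 8981959 on chromosome 17, with the nearest heterozygous peak 4.44 to 23.5 kb away. Neighbouring regions were separated by 4.49 kb or more, so they are distinct places rather than 1 site. *Nrg3*, a gene for a growth factor of the neuregulin family, had 9 knockout-only and 4 control regions in 1108 kb of chromosome 14. The genes with the largest surplus of knockout-only over control regions included both of these, the GABA receptor gene *Gabrb1* (5 and 1) and the synaptic scaffold gene *Dlg2* (5 and 1). Surpluses of similar size went the other way in the ephrin receptor gene *Epha6* (1 and 8), the potassium channel gene *Kcnd2* (0 and 5), the protocadherin gene *Pcdh7* (1 and 6), *Agbl4* (1 and 6) and *Fhit* (1 and 5). These genes were picked at the extremes of this difference, among 20661 genes.

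Genes of male germ cell biology were next read for knockout-only regions within their bounds or 1000 bp outside. Over all 20661 autosomal protein-coding genes, 1389 (6.72%) had such a region, and 1253 (6.06%) had a control region. Of 26 transposon-silencing and piRNA genes, 0 had a knockout-only region and 2 had a control region. The latter were *Ddx4*, the germ-cell RNA helicase gene, and *Dnmt3b*, a DNA methyltransferase gene. Of 26 heterochromatin genes, 0 had a knockout-only region and 3 had control regions: *Ehmt2*, which codes for a histone methyltransferase, the chromatin remodeller gene *Hells* and the histone demethylase gene *Kdm4c*. Of 30 meiotic genes, 0 had a region of either set. At a background of 6.72%, lists of this size would hold few genes with a region, so a count of 0 is no result about them. At least 1 peak of any kind in the E16.5 knockout list was found at 25 of the 26 transposon-silencing, all 26 heterochromatin and 29 of the 30 meiotic genes. Over all 20661 autosomal protein-coding genes it was 15097. The 3 lists hold longer genes, with median lengths of 42.1, 39.5 and 32.2 kb against 17.5 kb over all.

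Of 26 germ cell identity and pluripotency genes, 2 had a knockout-only region and 3 a control region. The region at *Kit*, the stem cell factor receptor gene, lay 21.4 kb downstream of its start at chr5:75596143-75596643, with the nearest heterozygous peak 6.26 kb away. The region at *Prdm1*, a transcriptional repressor gene needed to specify germ cells, lay at chr10:44526864-44527364, 1.84 kb from a heterozygous peak. Both genes also had a control region elsewhere in the gene, and *Sox2*, a pluripotency gene, had a control region only. Of 23 spermatogonial genes, *Kit* alone had a knockout-only region, and 4 (*Kit*, *Lhx1*, *Lhx4* and *Upp1*) had a control region. Over all coding genes the shares were 6.72% and 6.06%, so counts this small are no result about these 2 lists.

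Markers of other cells that a germ cell sample could hold were read in the same way. Of 27 testis somatic markers, 3 had a knockout-only region: *Wt1*, a Sertoli and supporting cell factor, *Pdgfra*, a mesenchymal receptor gene, and *Emx2*, a factor of gonad formation. Also 3 had a control region (*Pdgfra*, *Fst* and *Myh11*). Of 17 blood and endothelial markers, 1 had a knockout-only region, *Tie1*, and 0 had a control region. Beside the 6.72% and 6.06% of all coding genes, counts this small are no result about either list. Any peak of the E16.5 knockout list was found at 17 of the 27 somatic markers and 8 of the 17 blood and endothelial markers, and any heterozygous peak of that stage at 16 and 9. Over all 20661 autosomal protein-coding genes, 15097 had a knockout peak and 14916 a heterozygous peak. The part of other cell types in the knockout-only regions was not tested.

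Gene families were counted by symbol. Over all 47038 autosomal genes of every type, 1996 (4.24%) had a knockout-only region and 1794 (3.81%) a control region. Of 1420 genes whose symbol begins with Olfr, the olfactory receptors, 13 had a knockout-only and 13 a control region (0.915% each). These genes are short, with a summed length of 2.44 Mb. Of protein-coding genes up to 10 kb, 1.02% had a knockout-only and 1.27% a control region within their bounds alone. Vomeronasal receptors gave 2 of 372 (Vmn1r) and 7 of 251 (Vmn2r), compared with 0 and 5 for control regions. Of 409 zinc finger genes named Zfp, 16 (3.91%) had a knockout-only and 17 (4.16%) a control region. Keratin-type symbols (Krt) gave 2 of 114 and 0. Among 45 Hox genes, the positional regulators of the body axis, 5 had a knockout-only region, through 4 distinct regions at *Hoxa10*, *Hoxb3* with its antisense gene *Hoxb3os*, *Hoxc8* and *Hoxd10*. For control regions it was 4 genes through 3 regions, at *Hoxd3*, *Hoxb2*, *Hoxb3os* and *Hoxc9*. Protocadherins differed most by genes, at 3 of 68 against 29. The 29 arose from 11 control regions, of which 6 lay in *Pcdh7* and 2 in *Pcdh9*. The other genes with a control region were nested genes of protocadherin clusters, whose bounds overlap, so 1 region was counted for many genes. The 3 genes held 5 knockout-only regions.

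Promoter windows, 250 bases before to 50 after an annotated start, were covered by 94 of the 4577 knockout-only regions (2.05%), compared with 0.754% of the moved regions. The control set gave 85 regions (2.08%, and 1.04% when moved). Peaks of both genotypes gave 22.8%. The 94 regions covered 102 windows of 97 genes. Of the 20 protein-coding starts closest to the middle of a knockout-only region, the first was that of *Tspan9*, exactly at the middle of the region chr6:128124123-128124623. Those of *Spp1*, *Wnt11*, *Olfr15* and *Cym*, with *Tspan9* printed above, were within 14 bp. The next were *Tgif1*, a homeobox repressor of TGF-beta signalling, and *Emp1*, an epithelial membrane protein gene. *Pigl* acts in anchoring proteins by GPI, *Oxct2a* codes for a ketone-body enzyme of germ cells, *Bscl2* for the lipid droplet protein seipin, and *Camk1g* for a calmodulin-dependent kinase. *Alkbh2* codes for a DNA repair enzyme and *Cxcl13* for a B-cell chemokine. *Ttc34*, *Bend3*, which codes for a DNA-binding repressor, *Gm38538*, *Mroh7*, the cornified envelope gene *Lce1c*, the pre-T-cell receptor gene *Ptcra* and *Gm33084* completed the 20. The starts of all 20 lay within 83 bp of the middle of the region.

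The 10 protein-coding starts closest to a control region were those of *Kcnk16*, *Rusc1*, *Cidec*, *Fgf6*, *Lamb3*, *Rasgrp2*, *Adcy7*, *Lhx1*, 1700067K01Rik and *Dlk2*, within 39 bp.

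The promoter windows under knockout-only regions had a low CpG content. The ratio of observed to expected CpG, which is 1 where the dinucleotide is as frequent as its bases predict, had a median of 0.297 (quartiles 0.181 and 0.467) over the 102 windows. Control regions gave 0.331 over 95 windows. Windows under knockout-only regions found at another stage gave 0.480, those under peaks of both genotypes 0.787, and all 31396 autosomal windows 0.389. Counting as CpG-rich a window with a ratio above 0.6 and a GC content above 50%, 17 of 102 windows under knockout-only regions were rich (16.7%, interval 10.7 to 25.1). The share was 21.1% under control regions (interval 14.1 to 30.3), 34.1% under knockout-only regions found at another stage (interval 30.3 to 38.3), 73.6% under peaks of both genotypes and 33.9% of all windows. The knockout-only and control intervals overlap, and both lie below the share of all windows. Peaks of both genotypes covered 8642 of the 10648 CpG-rich windows, and the rule keeps both sets off such peaks. A share below that of all windows is therefore no result about the regions. With protein-coding genes alone the CpG-rich shares were 23.6% of 55 windows, 28.6% of 63 and 46.2% of all 20084. Of the 20 closest starts, those of *Wnt11*, *Tgif1*, *Pigl* and *Gm38538* were CpG-rich and the others were not.

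**Figure D5:**
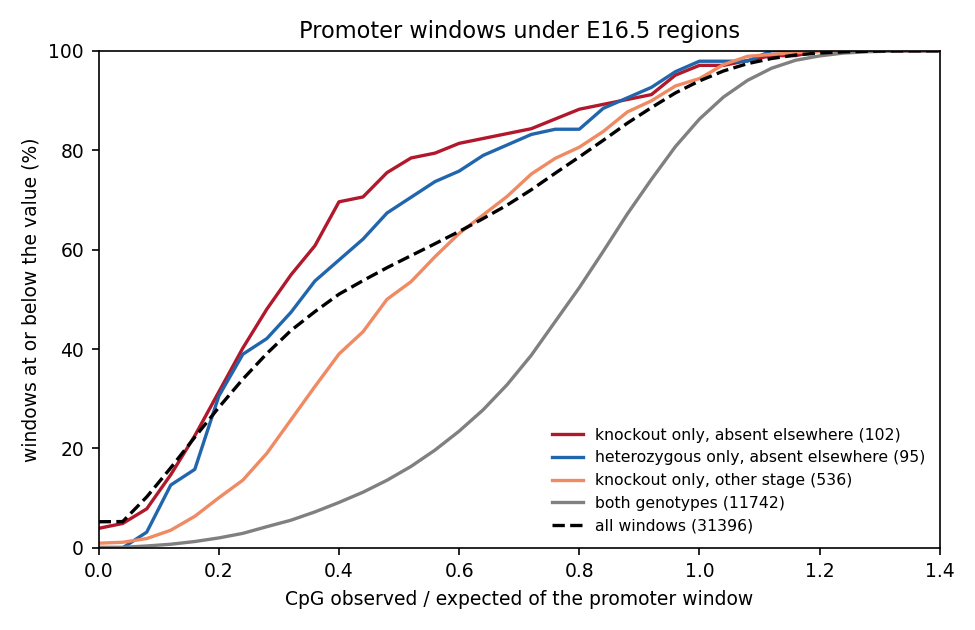
Cumulative share of promoter windows (y axis, percent) by the ratio of observed to expected CpG (x axis), for windows covered by 4 classes of E16.5 region and for all autosomal windows; numbers of windows are in the key. The median is 0.297 under knockout-only regions absent elsewhere and 0.787 under peaks of both genotypes.

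Short motifs were counted in the same windows on both strands. The GC box GGGCGG, bound by SP and KLF factors, was in 29.4% of the 102 windows (interval 21.4 to 38.9), compared with 34.7% for control regions, 68.9% for peaks of both genotypes and 35.98% of all windows. The TATA sequence TATAAA was in 14.7% (interval 9.12 to 22.9), 8.42%, 5.54% and 13.6% of them. CCAAT was in 38.2%, 26.3%, 39.4% and 37.3%. The E-box CACGTG was in 6.86%, 6.32%, 10.9% and 7.14%. The AP-1 sequence TGACTCA was in 6.86%, 9.47%, 2.73% and 5.26%, and the cyclic AMP response sequence TGACGTCA in 0.980%, 2.11%, 3.62% and 1.83%. For each of these 6 motifs the interval of the knockout-only windows contained the share over all windows and overlapped the interval of the control windows. A match shows only that the letters are present in the window.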

How the data were processed

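ATAC-seq was done on 16 samples in 8 groups of 2, with groups read from each title. The authors deposited peak positions only, as 3-column lists (chromosome, start, end) of 1 list per stage and genotype. Per the submitters' processing notes the build was mm10, and the tools named, with no role, were bcl2fastq 2.20, cutadapt 1.18, Bowtie2 2.3.4.1, deepTools 3.5.0 and HOMER 4.10. The peak threshold and any pooling of samples are not given in the sources used here. Fixed-width peaks hide differences in breadth, and a peak near the threshold can be in 1 list and not in another.

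Overlaps were computed with pandas 2.3.3 and numpy 2.4.6, tested on simulated data, and checked against bedtools 2.31.1, which found the same 4672 and 4161 regions. Intervals came from scipy 1.17.1 and figures from matplotlib 3.10.9. Genes are those of the RefSeq table of GRCm38.p6, the same build as mm10; promoters come from its promoter table, used for 18 autosomes. Of 174 listed genes matched on autosomes, each is counted once per list. The members, lists and measures were chosen with earlier results of these data known. Genes named are those of the lists with a region, the 10 with most regions, the 5 largest surpluses each way, those in the 5 densest windows (of the 12 on chromosome 17, *Pde10a* alone), and the 20 (control, 10) starts closest to a region; genes at the 5 most isolated regions, Hox genes, microRNAs, *Tdrd12* and *Pld6* were added after their values were seen; some results under this rule are not reported here. The CpG threshold, gene-length classes and distances by class were chosen after the data were seen. Printed coordinates are 1-based. The sequence of the regions themselves, and so their transposon content, was not analysed here.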

Additional observations from a re-analysis of the deposited data

How the results depend on the processing

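No paired analysis was possible because the lists give 1 set of positions per group and no values per sample; hence no replicate could be left out either. No value has a test; a share or ratio counts as changed when it left its 95% interval, a count when it changed by over 1.5 times. Of 61 recomputed values 34 did not change. The ratio of knockout-only to control regions stayed between 1.08 and 1.15 under all 7 alternatives. Leaving the P0 list out of the rule raised the numbers to 7577 and 6663. In the following, the knockout-only value comes first and the control value second. The share at gene ends became 10.3% and 11.4% with a reciprocal overlap of 50%, 6.31% and 6.83% with windows of 500 bp, and 3.92% and 4.69% with protein-coding genes only; counting peaks within 500 bp as found moved the control share to 8.77%. Shares between genes became 62.6% and 63.6% with protein-coding genes only. With other distances, shares change by construction: another region of the set within 5 kb, 0.899% and 1.68%, and within 50 kb, 24.8% and 26.2%; any peak within 2 kb, 16.3% and 19.9%, and within 20 kb, 84.9% and 90.2%. Windows with 0 genes held 13.8% and 17.9%, and those with at most 3 genes 41.5% and 46.5%. Listed genes with a region numbered 6 and 14, or 2 and 5 in gene-end windows only; family genes numbered 48 and 68, or 89 and 109 with bounds extended by 5000 bp. In each of these pairs the order of the genotypes was that of the reported values. Unknown depth limits every count, since a list can grow with depth alone.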

Other observations

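The rule leaves out the sex chromosomes. On the X chromosome it would have found 244 knockout-only and 112 control regions, a ratio of 2.18 (95% Wilson interval 1.74 to 2.72), above the 1.52 of chromosome 11, the highest autosome, whose interval (1.15 to 2.001) overlaps it. For regions found at another stage the X chromosome gave nearly the same ratio, 2.18 (397 and 182, interval 1.83 to 2.60). On chromosome 6 the ratios were also close, at 1.39 and 1.46. Of the X peaks in the knockout list, 10.5% were absent elsewhere, compared with 5.70% in the heterozygous list.

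No hairpin of the 1005 annotated microRNAs in the RefSeq table was covered by a knockout-only region, and 2 were covered by control regions (*Mir543* and *Mir7020*). Counts this small are no result about microRNAs.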
